A study of Homo sapiens with 6 samples.

Results

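Matrix metalloproteinases (MMPs) and their tissue inhibitors (TIMPs) were followed in A2780 cells, an established line from a human ovarian carcinoma, with 6 arrays. The 10 genes were chosen by name: the collagenase MMP1, the stromelysins MMP3 and MMP10, the gelatinases MMP2 and MMP9, the membrane-type enzyme MMP14, and the inhibitors TIMP1, TIMP2, TIMP3 and TIMP4. They are 10 of 18418 genes and are read by 11 of the 33252 probe sets, because TIMP3 has 2. The choice was made with the values on these arrays and each hairpin's change against both controls already known, so the members' values are given as a description, without a test.

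Lentiviral short hairpin RNAs, which lower a chosen transcript, were introduced by infection, and RNA was taken 96 hours later. The infections were BMI1 shRNA1 and BMI1 shRNA2 with their BMI1 Ctrl, and FAL-1 shRNA1 and FAL-1 shRNA2 with their FAL-1 Ctrl, 1 array each, all in medium with 10% fetal bovine serum. BMI1 belongs to a Polycomb complex that modifies histone H2A, and FAL-1 is a long RNA that codes for no protein. A group of 2 hairpins is 2 reagents against 1 transcript in 1 cell line, and separate cultures are not described.

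MMPs are zinc-dependent enzymes that are made as inactive proenzymes and cut collagens, laminins, proteoglycans and other proteins outside the cell. TIMPs bind the active site of the enzymes and block it. In carcinomas the secreted MMPs come from both tumour cells and stromal fibroblasts. The promoters of several MMP genes and of TIMP1 are known to be bound by AP-1, a dimer of FOS and JUN family proteins, and by ETS factors.

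Promoter sequence was at hand for 5 of the 10 genes. Those of 3 are shown because they belong to an inhibitor that read higher than the own control with all hairpins (TIMP1), an inhibitor that stood higher mainly with 1 hairpin (TIMP3) and a stromelysin that moved little (MMP10). Each is the 250 bases before the RefSeq start, GRCh38.p14, 5′ to 3′ on the gene's strand. TIMP1 is at chrX:47582186-47582435 on the plus strand, TIMP3 at chr22:32801455-32801704 on the plus strand, and MMP10 at chr11:102780629-102780878 on the minus strand. Capitals mark matches on either strand to TGAGTCA (AP-1 consensus), TGAGTAA (an AP-1 variant), AGGAAG (an ETS site of the PEA3 type), GGGCGG (GC box) and the TATA box motif TATAAA.
TIMP1: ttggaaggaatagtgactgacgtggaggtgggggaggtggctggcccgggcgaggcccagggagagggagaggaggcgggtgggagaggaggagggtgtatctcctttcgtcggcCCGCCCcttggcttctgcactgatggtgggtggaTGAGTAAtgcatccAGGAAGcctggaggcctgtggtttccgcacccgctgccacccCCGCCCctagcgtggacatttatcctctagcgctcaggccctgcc
TIMP3: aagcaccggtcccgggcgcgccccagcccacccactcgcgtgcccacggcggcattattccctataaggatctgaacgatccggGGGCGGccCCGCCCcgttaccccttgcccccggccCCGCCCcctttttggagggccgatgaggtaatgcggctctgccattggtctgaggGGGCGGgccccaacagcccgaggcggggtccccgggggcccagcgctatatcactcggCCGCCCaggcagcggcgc
MMP10: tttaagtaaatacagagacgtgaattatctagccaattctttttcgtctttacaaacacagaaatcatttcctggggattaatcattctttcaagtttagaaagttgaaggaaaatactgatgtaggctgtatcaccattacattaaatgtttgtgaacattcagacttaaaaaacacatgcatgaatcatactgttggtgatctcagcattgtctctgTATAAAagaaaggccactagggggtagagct
The TIMP1 window held TGAGTAA at bases 101 to 95 before the start and AGGAAG at bases 87 to 82, with 2 GC boxes. The TIMP3 window held 5 GC boxes and no other match. The MMP10 window held TATAAA at bases 31 to 26 and no other match. Of the windows not shown, that of TIMP4 also held AGGAAG, at bases 76 to 71, and a GC box at bases 57 to 52. That of MMP14 held a GC box at bases 66 to 61. Among 35116 windows of the same length, TGAGTAA was in 2.21%, AGGAAG in 28.7%, GGGCGG in 42.6% and TATAAA in 10.7%. TGAGTCA was in 4.2% of them and in none of the 5 members' windows. None of the marked matches overlap, and a match is a description of the sequence, not a binding site.

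The values are log2 probe set summaries. The median over genes lay between 7.50 and 7.61 on each array. A probe set's value also depends on its probes, so levels were compared between arrays for 1 gene. Between genes a probe set was placed only above or below the median of genes. That place describes the probe set and does not show whether the gene was expressed. The target was lowered unevenly. The probe set for BMI1, shared with COMMD3-BMI1, stood at 26.8% of the control with BMI1 hairpin 1 and at 64.0% with hairpin 2, and FAL-1 was not read by a named probe set. FAL-1 hairpin 2 stood apart, with 11.2% of all genes at 1.5-fold or more against its control beside 2.51% for FAL-1 hairpin 1 and 5.01% and 5.82% for BMI1 hairpins 1 and 2, so FAL-1 values are given for each hairpin beside any mean. Of 10 markers of ovarian epithelial cancer, KRT8 and KRT18 lay above the median of genes on all arrays and 7 lay below it on all, PAX8, MUC16 and CDH1 among them. Of 9 fibroblast markers 7 lay above it on all arrays, the collagen genes COL1A1, COL1A2 and COL3A1 included, and of 6 leukocyte markers 1 did. All arrays are of 1 cell line, so these markers do not count fibroblasts or leukocytes. In such bulk RNA, fewer cells making a transcript and less of it per cell cannot be told apart.

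Across all 18418 genes limma's test, with Benjamini-Hochberg adjustment, called 0 for BMI1 knockdown and 0 for FAL-1 knockdown at an adjusted p under 0.05. At an unadjusted p under 0.05 it had 477 and 563 genes, or 2.59% and 3.06% of those tested. The number of arrays limits the precision, and limma's spread has 2 residual degrees of freedom, both from pairs of hairpins. P-values then measure only the spread between these samples.

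MMP1, the interstitial collagenase that cuts fibrillar collagen, had the widest range of the members. It read 10.52 and 10.94 with FAL-1 hairpins 1 and 2, against 9.63 in the FAL-1 control. The changes were 0.89 and 1.31, a mean of 1.10 ± 0.30 (SD, n = 2 hairpins) or 2.15-fold. Both FAL-1 hairpins lay above all 4 other arrays. With BMI1 hairpins 1 and 2 it read 9.33 and 8.58, against 8.56 in the BMI1 control, so that only hairpin 1 stood clear of that control. The changes were 0.77 and 0.02, a mean of 0.40 ± 0.53 (SD, n = 2 hairpins).

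The sign of the MMP1 value for BMI1 depended on which control was used. The FAL-1 control read 1.06 higher than the BMI1 control, which is 2.09-fold. Against the FAL-1 control the BMI1 hairpins stood at -0.29 and -1.04, while the FAL-1 hairpins stood at 1.96 and 2.38 against the BMI1 control. The order from high to low was FAL-1 hairpin 2, FAL-1 hairpin 1, FAL-1 control, BMI1 hairpin 1, BMI1 hairpin 2 and BMI1 control. The FAL-1 control and BMI1 hairpin 1 differed by less than the SD between the BMI1 hairpins, and BMI1 hairpin 2 and its control were nearly equal. The controls differed by 1.5-fold or more for 2 of the 10 members, MMP1 and TIMP2, and for 2.55% of all genes.

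**Figure D1:**
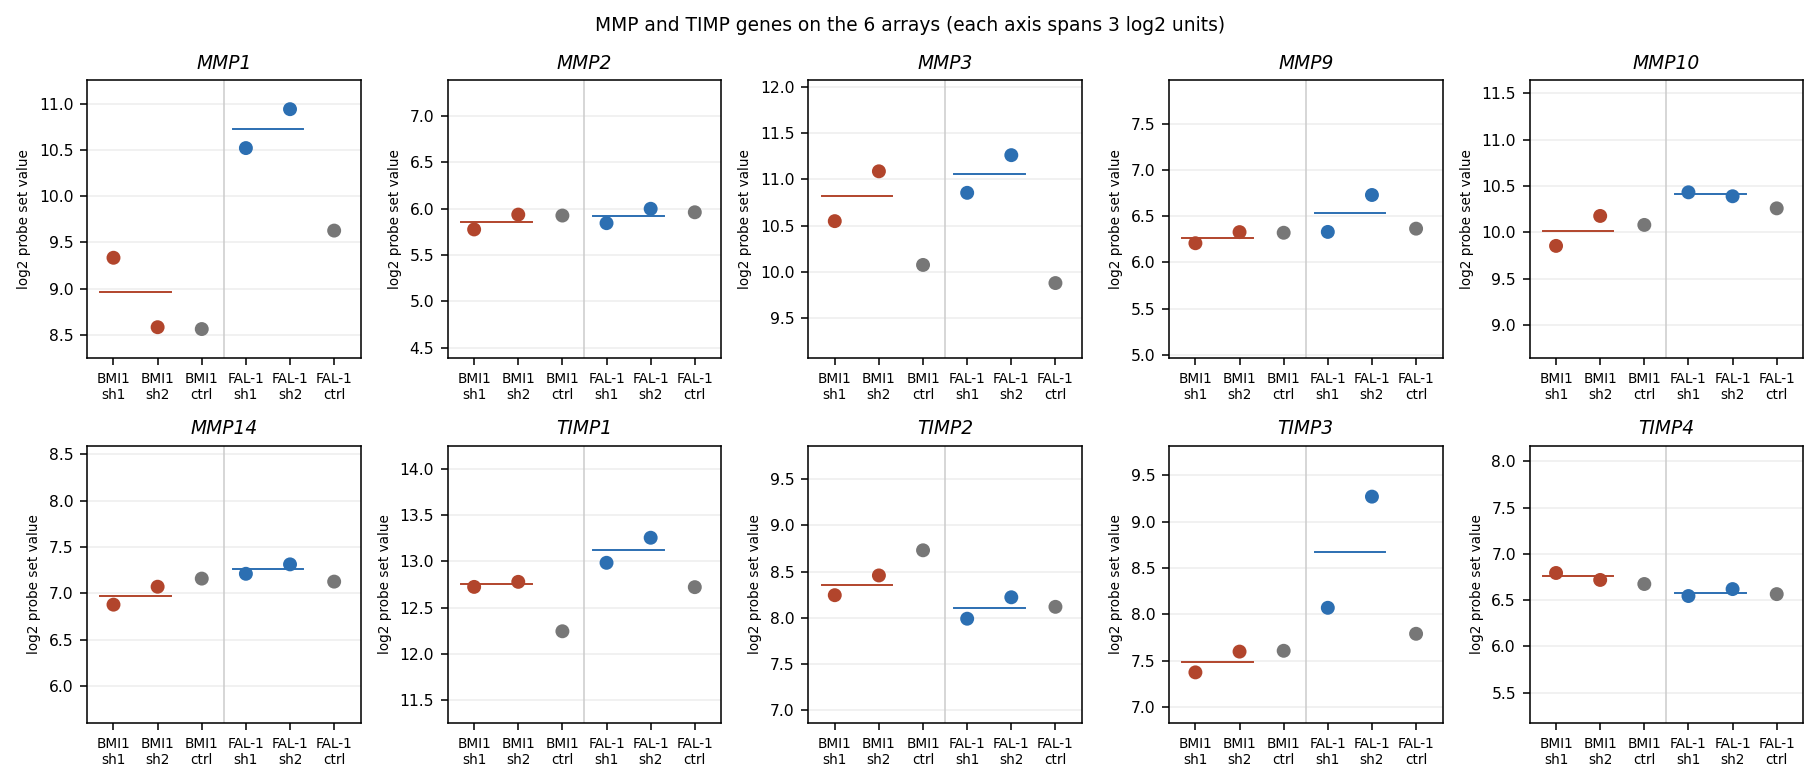
Log2 probe set value (y axis) of each of the 10 genes on the 6 arrays, with hairpin arrays in colour, control arrays in grey and a line at the mean of each hairpin pair. Every panel spans the same number of log2 units, so that the steps of MMP1, MMP3 and TIMP3 can be seen beside the flat rows of MMP2 and TIMP4.

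MMP3, stromelysin 1, cuts proteoglycans and laminin and can activate proMMP1. It stood above both controls with all 4 hairpins. It read 10.86 and 11.26 with the FAL-1 hairpins against 9.88 in the FAL-1 control, a mean change of 1.18 ± 0.29 (SD, n = 2 hairpins) or 2.26-fold. The hairpin values do not overlap either control. With the BMI1 hairpins it read 10.55 and 11.09, against 10.08 in the BMI1 control, a mean change of 0.74 ± 0.38 or 1.67-fold. In both targets hairpin 2 gave the higher value. The BMI1 probe set stood at 64.0% of the control with BMI1 hairpin 2 and at 26.8% with hairpin 1. Whether the MMP3 value follows the degree of BMI1 lowering was not tested. The controls differed by only -0.20 (FAL-1 minus BMI1), so the other control left the direction as it was: 0.67 and 1.21 for the BMI1 hairpins, and 0.78 and 1.19 for the FAL-1 hairpins.

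MMP10, stromelysin 2, is the closest relative of MMP3 and moved far less. It read 10.43 and 10.39 with the FAL-1 hairpins against 10.26 in the FAL-1 control, and 9.85 and 10.18 with the BMI1 hairpins against 10.08 in the BMI1 control. The mean changes were 0.15 ± 0.03 and -0.06 ± 0.23 (SD, n = 2 hairpins each), and the BMI1 hairpins lay on either side of their control. The change of MMP3 exceeded that of MMP10 on each of the 4 hairpin arrays, by 0.70 and 0.91 with BMI1 hairpins and 0.80 and 1.25 with FAL-1 hairpins. That difference within an array shows unequal change of the 2 probe sets, and cross-reading between these similar genes was not tested.

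MMP1, MMP3 and MMP10 lie in a row of MMP genes on chromosome 11, in the RefSeq order MMP7, MMP20, MMP27, MMP8, MMP10, MMP1, MMP3, MMP12 and MMP13. The higher values were not spread along the whole row. MMP12, macrophage elastase, read 5.84 and 6.93 with the FAL-1 hairpins, against 5.65 in the FAL-1 control, so hairpin 2 alone was far above it. MMP8, neutrophil collagenase, read 6.66 and 5.62 there against 5.78, and 5.98 and 5.10 with the BMI1 hairpins against 5.47 in the BMI1 control. For MMP8 it was thus hairpin 1 of each target that was higher and hairpin 2 that was lower. MMP7, MMP20, MMP27 and MMP13 differed from their controls by 0.21 or less with every hairpin. MMP8, MMP12 and these 4 genes are named for their place in the row, a choice made after their values were seen, and their probe sets lay below the median of genes on all 6 arrays.

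**Figure D2:**
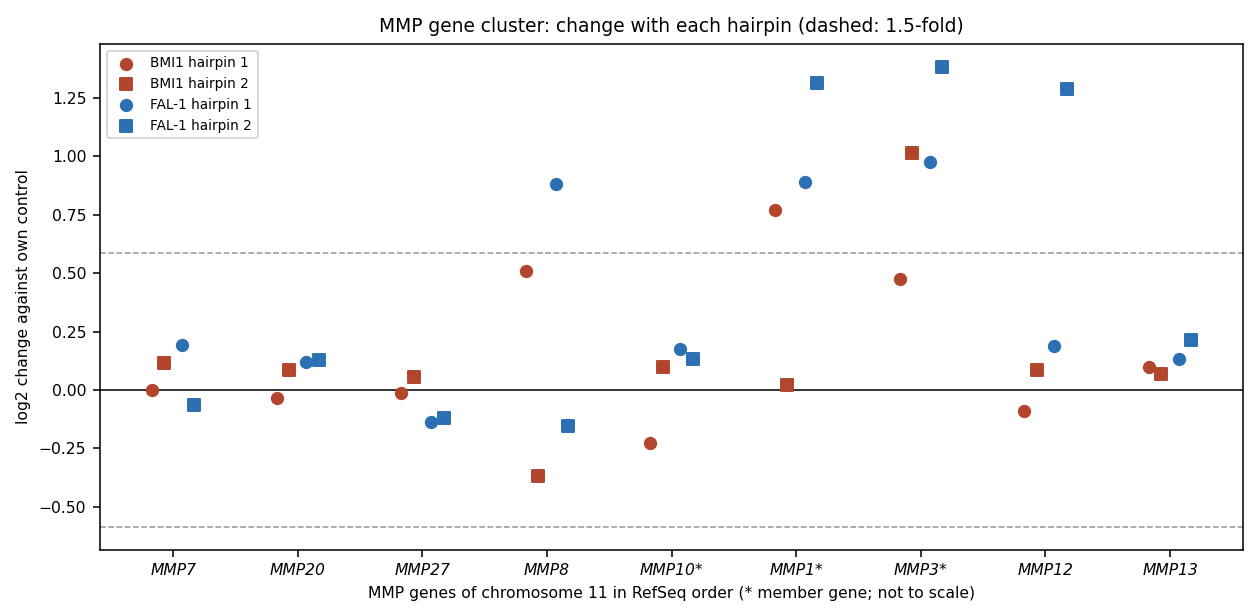
Log2 change of each hairpin against its own control (y axis) for the 9 MMP genes of the chromosome 11 row in gene order (x axis, not to scale), with circles for hairpin 1 and squares for hairpin 2. MMP1 and MMP3 stand above the dashed 1.5-fold line with both FAL-1 hairpins, and MMP10 beside them stays near 0.

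The gelatinases and the membrane-type enzyme differed little between arrays. MMP2, gelatinase A, which is activated at the cell surface by MMP14 together with TIMP2, read 5.84 and 6.0 with the FAL-1 hairpins against 5.96 in their control, and 5.78 and 5.94 with the BMI1 hairpins against 5.93 in theirs. Its whole range over 6 arrays was 0.22. MMP9, gelatinase B, stood out on 1 array: FAL-1 hairpin 2 read 6.73, while FAL-1 hairpin 1 read 6.33 and the FAL-1 control 6.37. With the BMI1 hairpins it read 6.21 and 6.33 against 6.32. MMP14 read 7.21 and 7.31 with the FAL-1 hairpins against 7.13, and 6.88 and 7.07 with the BMI1 hairpins against 7.16. The FAL-1 hairpins lay above both controls and the BMI1 hairpins below both, by 0.28 at most. MMP2, MMP9 and MMP14 lay below the median of genes on every array, and so did TIMP4.

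TIMP1 inhibits most secreted MMPs and also acts as a growth factor. It read 12.98 and 13.25 with the FAL-1 hairpins against 12.72 in the FAL-1 control, a mean change of 0.40 ± 0.19 (SD, n = 2 hairpins) or 1.32-fold. With the BMI1 hairpins it read 12.72 and 12.78, against 12.24 in the BMI1 control, a mean change of 0.51 ± 0.04 or 1.42-fold. All 4 hairpins lay above their own control, although none by 1.5-fold. The BMI1 value rested on the low BMI1 control. Against the FAL-1 control, which read 0.48 higher, the BMI1 hairpins stood at 0.00 and 0.06. The FAL-1 hairpins stood at 0.74 and 1.01 against the BMI1 control, both past 1.5-fold.

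TIMP1, MMP1 and MMP3 were the 3 members above their own control with all 4 hairpins, as were 17.0% of all genes. With FAL-1 knockdown the collagenase and the stromelysin stood further from their own control than the inhibitor. The MMP1 change exceeded the TIMP1 change by 0.63 and 0.78 with FAL-1 hairpins 1 and 2, and the MMP3 change did so by 0.71 and 0.85. For MMP3 most of this depended on the control. Against the BMI1 control the FAL-1 hairpins stood at 0.78 and 1.19 for MMP3 and at 0.74 and 1.01 for TIMP1. MMP1 stood at 1.96 and 2.38 there. With BMI1 hairpins the difference between MMP1 and TIMP1 turned over, at 0.29 with hairpin 1 and -0.51 with hairpin 2. That between MMP3 and TIMP1 was -0.01 and 0.48.

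TIMP2, which blocks MMP2 and also takes part in its activation, gave no direction that held with both controls. It read 8.24 and 8.46 with the BMI1 hairpins, against 8.73 in the BMI1 control, a mean change of -0.38 ± 0.15 (SD, n = 2 hairpins). Against the FAL-1 control of 8.12 the same arrays stood 0.13 and 0.34 higher. The FAL-1 hairpins gave 7.99 and 8.22, on either side of their own control and below the BMI1 control by 0.74 and 0.51. The BMI1 control was the highest of the 6 arrays.

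TIMP3 is bound to the extracellular matrix and also inhibits ADAM17 and aggrecanases of the ADAMTS family. It read 8.07 and 9.27 with the FAL-1 hairpins, against 7.79 in the FAL-1 control. The changes were 0.28 and 1.48, a mean of 0.88 ± 0.85 (SD, n = 2 hairpins), so that hairpin 2 stood 2.79-fold above the control and hairpin 1 only 1.21-fold. With the BMI1 hairpins it read 7.37 and 7.60 against 7.61 in the BMI1 control, and no BMI1 array was above a FAL-1 array. On the dimmer second probe set the changes were smaller, at 0.07 and 0.46 with the FAL-1 hairpins and -0.06 and -0.10 with the BMI1 hairpins. There the sets overlapped: it read 5.78 and 6.18 with the FAL-1 hairpins against 5.72 in the FAL-1 control, and 5.80 and 5.76 with the BMI1 hairpins against 5.86 in the BMI1 control. With the mean of both probe sets the FAL-1 change of TIMP3 was 0.57 in place of 0.88.

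The keratins KRT19, KRT8 and KRT18 of the epithelial list were also higher on the array of FAL-1 hairpin 2. KRT19 (keratin 19) read 8.57 there and 6.73 with hairpin 1, against 6.72 in the FAL-1 control. KRT8 and KRT18 stood 1.79 and 0.69 above that control with hairpin 2, but at -0.24 and -0.34 with hairpin 1. EPCAM stood at -0.01 with hairpin 2, and PAX8, WT1, MUC16, MSLN, CDH1 and KRT7 at 0.14 to 0.31. The mean of the list there was thus moved most by KRT8, KRT18 and KRT19. The mean log2 level of the 10 markers was 6.88 and 7.49 with FAL-1 hairpins 1 and 2, against 6.93 in the FAL-1 control, and 6.90 and 7.16 with BMI1 hairpins against 6.88 in the BMI1 control. The 9 fibroblast markers averaged 9.15 and 8.98 with FAL-1 hairpins against 8.98, and 8.56 and 8.85 with BMI1 hairpins against 8.84. These averages hold changes in opposite directions, shown by 2 markers picked out after their values were seen. PDGFRB stood at -0.59 and -0.67 with FAL-1 hairpins and at -1.23 and -0.84 with BMI1 hairpins. COL1A2 stood at 0.52 and 1.19 with FAL-1 hairpins and at 0.19 and 0.18 with BMI1 hairpins. The 6 leukocyte markers averaged 6.27 and 6.50 with FAL-1 hairpins against 6.28, and 6.14 and 6.31 with BMI1 hairpins against 6.16. CD68 moved the FAL-1 hairpin 2 average most, at 0.89, with ITGAM at 0.36 and CD14 at 0.24. PTPRC, LYZ and CD3E stood at -0.002, -0.08 and -0.09 there. The part of these shifts, and of the general shift of that array, in the TIMP3 and MMP9 values was not tested.

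TIMP4 was close to flat. It read 6.54 and 6.62 with the FAL-1 hairpins against 6.57 in their control, and 6.79 and 6.72 with the BMI1 hairpins against 6.67 in theirs. TIMP genes lie inside introns of synapsin genes, TIMP1 in SYN1, TIMP3 in SYN3 and TIMP4 in SYN2, so the hosts were read as well. SYN3 stood at 0.04 and 0.08 with FAL-1 hairpins 1 and 2, against 0.28 and 1.48 for TIMP3. SYN1 stood at -0.23 and 0.32 with the FAL-1 hairpins and at 0.07 and 0.25 with the BMI1 hairpins, and SYN2 was below its control by 0.24 at most. Of the 3 synapsin genes limma called 0 for either target, and 0 had an unadjusted p under 0.05. The unadjusted share of all genes was 2.59% for BMI1 knockdown and 3.06% for FAL-1 knockdown.

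Against their own control, 2 of 10 members stood 1.5-fold higher with both FAL-1 hairpins, MMP1 and MMP3, and 0 stood that much lower. Of all genes 0.576% were that much higher and 0.635% lower. By the smaller of both FAL-1 changes MMP3 ranked 9 and MMP1 ranked 14 from the top among 18418 genes, which describes how they came to be chosen and supports nothing further. Both also stood 1.5-fold higher with the FAL-1 hairpins than both controls, as did 0.445% of all genes. With both BMI1 hairpins 0 of 10 members stood 1.5-fold higher or lower, beside 0.538% of all genes higher and 0.901% lower, or 1.44% in either direction. The median mean change of the members was 0.16 for FAL-1 knockdown and -0.06 for BMI1 knockdown, beside 0.03 and 0.01 for all genes. By hairpin the members' median was 0.13 and 0.28 with FAL-1 hairpins 1 and 2, and -0.13 and 0.02 with BMI1 hairpins 1 and 2.

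Without a fold threshold, 6 of 10 members lay above the FAL-1 control with both FAL-1 hairpins (MMP1, MMP3, MMP10, MMP14, TIMP1 and TIMP3), beside 37.2% of all genes, and 0 lay below it, beside 27.7%. The same 6 also lay above both controls, as 26.6% of all genes did, and 0 lay below both, beside 17.2%. For the BMI1 hairpins 4 members lay above the own control (MMP1, MMP3, TIMP1 and TIMP4), beside 32.9% of all genes, and 3 below it (MMP14, TIMP2 and TIMP3), beside 30.7%. Above both controls there were 3 with BMI1 hairpins (MMP3, TIMP1 and TIMP4), beside 19.7% of all genes, and below both there were 2 (MMP14 and TIMP3), beside 21.8%. None of the 10 reached 1.5-fold above both controls there, beside 0.179% of all genes. The BMI1 shares are thus close to those of all genes.

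Exchanging the controls altered these counts. Set against the BMI1 control, both FAL-1 hairpins were 1.5-fold higher for 3 members, MMP1, MMP3 and TIMP1, where 2.47% of all genes were, and 3.97% were in either direction. They lay above that control for 7 members, beside 41.8% of all genes, and below it for TIMP2 and TIMP4, beside 28.1%. Set against the FAL-1 control, both BMI1 hairpins were 1.5-fold higher for MMP3 alone, where 0.966% of all genes were, and 1.5-fold lower for 0 members, where 2.05% were, or 3.02% in either direction. They lay above it for 4 members, beside 31.8% of all genes, and below it for 6, beside 37.7%. These comparisons share their control and hairpin arrays with the ones above, so they are no separate evidence.

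**Figure D3:**
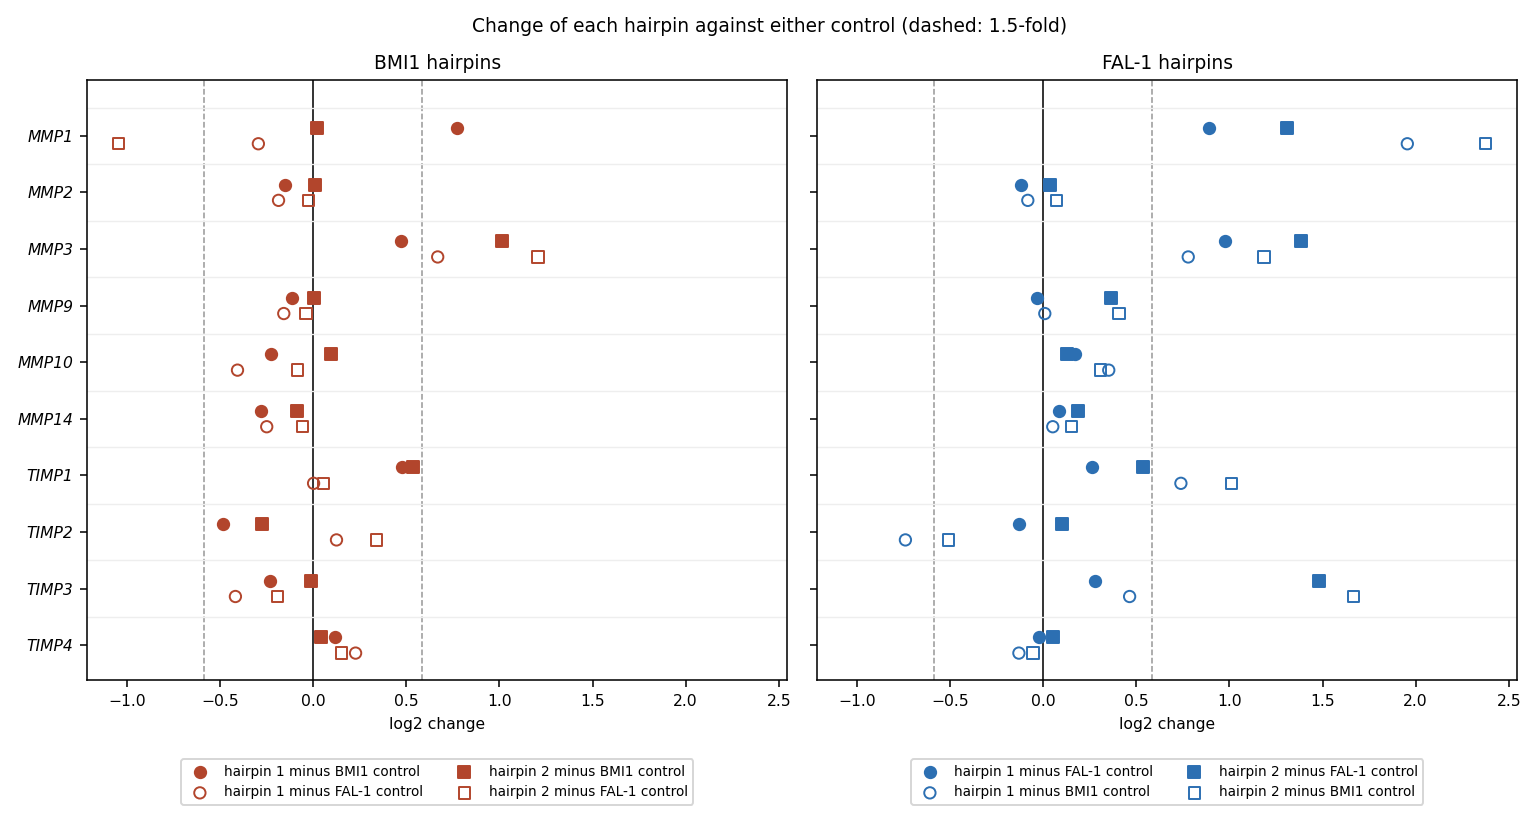
Log2 change (x axis) of each gene with BMI1 hairpins (left) and FAL-1 hairpins (right), with circles for hairpin 1, squares for hairpin 2, filled marks for the own control and open marks for the other target's control. MMP3 keeps its side of 0 with every mark, while MMP1 and TIMP2 with BMI1 hairpins change side with the control.

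The FAL-1 and BMI1 sets also differed as wholes. All 3 arrays of the FAL-1 set lay above all 3 of the BMI1 set for 4 members, MMP1, MMP9, MMP10 and TIMP3, as they did for 12.4% of all genes. They lay below for TIMP2 and TIMP4, as for 6.35% of all genes. For MMP9 the nearest arrays of both sets read 6.33. For TIMP3 this holds for the brighter probe set and not for the dimmer one. These counts include the control arrays, which carry neither target's hairpin, so they describe the sets and not the knockdowns.

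**Figure D4:**
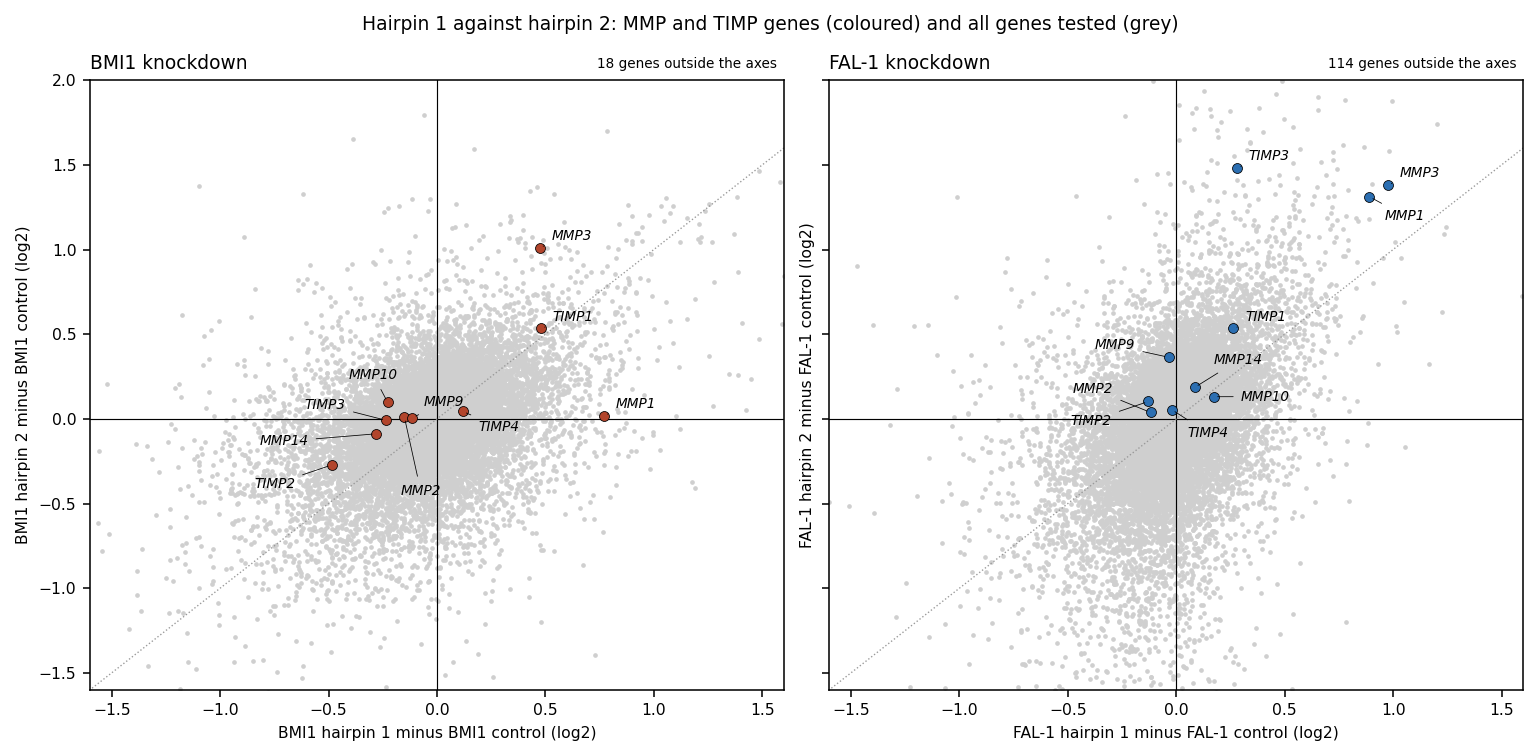
Log2 change with hairpin 1 (x axis) and hairpin 2 (y axis) against the own control for BMI1 (left) and FAL-1 (right). The 10 MMP and TIMP genes are in colour, and a dotted line marks equality. Grey marks the 18418 genes tested, except those outside the axes, whose number is printed above each panel. MMP1 and MMP3 lie far up both FAL-1 axes, TIMP3 lies high on the hairpin 2 axis only, and in the BMI1 panel MMP1 lies along the hairpin 1 axis.

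Other genes of the system were read from lists of related genes. Limma called 0 of all genes, so its 0 in every list was fixed in advance. Of 16 other MMP genes 0 had an unadjusted p under 0.05 in either comparison. The share of all genes was 2.59% for BMI1 knockdown and 3.06% for FAL-1 knockdown, so 0 does not set this list apart. Read by the brightest probe set, none stood 1.5-fold away with both hairpins of a target. Among all genes 1.44% did for BMI1 and 1.21% for FAL-1. The median change was 0.01 and 0.08 with FAL-1 hairpins 1 and 2, and -0.02 and 0.09 with BMI1 hairpins 1 and 2. MMP16, a membrane-type MMP, was below its control on all 4 hairpin arrays, a gene picked out after its values were seen. Its brighter probe set stood at -0.12 and -0.67 with FAL-1 hairpins and -0.23 and -0.93 with BMI1 hairpins, and the dimmer one at -0.19 and -1.20 with FAL-1 hairpins and -0.68 and -1.57 with BMI1 hairpins. The dimmer probe set was thus more than 1.5-fold lower with both BMI1 hairpins.

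Of 19 measured activators and inhibitors of proteolysis at the cell surface, limma called 0 for either target. CTSB, the lysosomal protease cathepsin B, was 1 of 19 with an unadjusted p under 0.05 for FAL-1 knockdown, and 0 of 19 had one for BMI1 knockdown. The shares of all genes were 3.06% and 2.59%, so these counts do not set the list apart. CTSB read 10.21 and 10.14 with FAL-1 hairpins against 9.71, a mean change of 0.46 ± 0.05 (SD, n = 2 hairpins, limma's adjusted p = 0.999). FURIN, a proprotein convertase that can activate proMMP14, stood 0.47 and 0.64 above the FAL-1 control, and LRP1, a receptor that takes up MMPs and TIMPs, 0.33 and 0.66. TFPI2, a protease inhibitor of the matrix, read 10.19 and 9.80 with BMI1 hairpins against 9.30, and 7.38 and 8.50 with FAL-1 hairpins against 7.69. Its values were thus lower on all FAL-1 arrays than on any BMI1 array. THBS1, a matrix protein that binds MMPs, stood at 0.22 and 2.76 with FAL-1 hairpins and was picked out after its values were seen. Like TIMP3, it was far above its control with hairpin 2 alone.

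The 28 measured ADAM and ADAMTS genes are relatives of the MMPs, and TIMPs, TIMP3 above all, can inhibit the proteins of some of them. Limma called 0 of the 28 and had 0 at an unadjusted p under 0.05 for either target. The unadjusted share of all genes was 2.59% for BMI1 knockdown and 3.06% for FAL-1 knockdown. ADAM22, an ADAM of the nervous system without protease activity, was lower by 0.35 and 1.24 with FAL-1 hairpins and by 0.63 and 0.90 with BMI1 hairpins. It was the 1 gene of the list at 1.5-fold with both hairpins of a target, BMI1. Among all genes 1.44% were for BMI1 and 1.21% for FAL-1. ADAMTS1, an aggrecan-cutting protease, read 9.02 and 8.93 with BMI1 hairpins against 8.50, but 9.04 in the FAL-1 control, so that the control chosen again decided the value. ADAM19 stood at 0.38 and 1.83 with FAL-1 hairpins, and ADAM23 at -0.52 and -0.35.

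AP-1 and ETS factors are known to act at MMP promoters. Of 15 such genes limma called 0, and 0 had an unadjusted p under 0.05 for either target. The unadjusted share of all genes was 2.59% for BMI1 knockdown and 3.06% for FAL-1 knockdown. With BMI1 hairpins 10 of 15 lay above their control with both, where 32.9% of all genes did, and with FAL-1 hairpins 6 of 15, where 37.2% of all genes did. These counts turned over with the control: 11 of 15 lay above the BMI1 control with both FAL-1 hairpins, where 41.8% of all genes did, and 4 of 15 above the FAL-1 control with both BMI1 hairpins, where 31.8% did. FOS read 8.06 and 8.18 with BMI1 hairpins against 7.01 in the BMI1 control, but 8.07 in the FAL-1 control. FOSB stood at 0.46 and 0.73 with BMI1 hairpins, but at -0.05 and 0.22 against the FAL-1 control. JUNB stood at 0.43 and 0.63 with BMI1 hairpins, but at 0.04 and 0.24 against the FAL-1 control. ATF3 was lower by 0.98 and 0.49 with FAL-1 hairpins, but 0.09 and 0.58 higher against the BMI1 control. With FAL-1 hairpins 1 and 2 FOS stood at -0.29 and 0.81 and FOSB at 0.01 and 0.81, so that only hairpin 2 was clearly above the control.

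**Figure D5:**
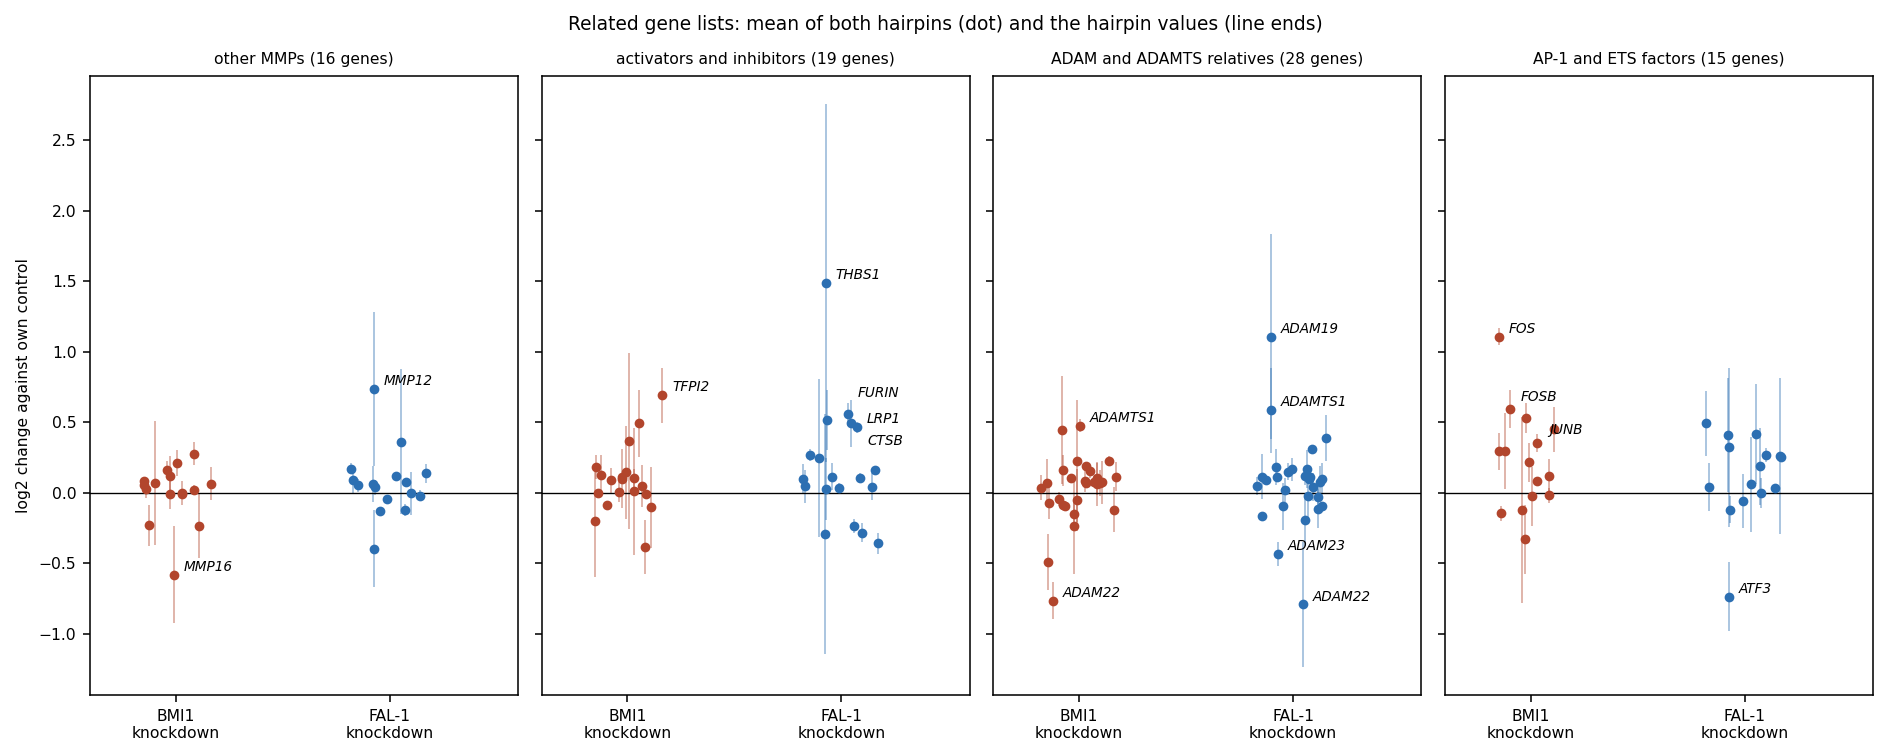
Log2 change against the own control (y axis) in the 4 lists of related genes, with a dot at the mean of both hairpins and a line between the hairpin values, BMI1 knockdown left and FAL-1 knockdown right in each panel. Most dots lie near 0, and the long lines of THBS1, ADAM19 and MMP12 show values set by 1 FAL-1 hairpin.

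The genes most like the 3 widest-ranging members were sought by Pearson r over the 6 arrays, among 1813 other genes with a range of 1 or more. For MMP1 they were ST3GAL5 (r = 0.996), CASP9 (0.992), MGAT1 (0.990) and TAX1BP1 (0.986). For MMP3 they were DQX1 (0.994), ZNF79 (0.967), STAT3 (0.963) and NID1 (0.951). For TIMP3 they were KCNMA1 (0.997), MMP12 (0.995), CEL (0.994) and CD52 (0.994). These are descriptions over 6 arrays that share controls within a target, and for TIMP3 the array of FAL-1 hairpin 2 sets most of the range. MMP1 and MMP3 themselves correlated at only 0.43, MMP3 and MMP10 at 0.36, and MMP1 and TIMP1 at 0.85.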

How the data were processed

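The authors deposited log2 values of 33252 probe sets on 6 one-colour Affymetrix arrays, with no value missing. Per the submitters' processing notes, these log2 values came from RMA, which corrects background, normalizes and summarises probes. Neither its version nor joint normalization of the arrays is stated there. A platform annotation gave 19460 probe sets 1 gene symbol and 1754 several, and did not list 12038. Those with several were left out except that of BMI1, and the brightest probe set on average stood for each of the 769 genes that have several, leaving 18418 genes. The listed genes MMP23B, SERPINB2, ADAMTS7 and ADAMTS15, among others, were not analysed here.

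All 6 arrays entered 1 limma 3.58.1 fit (R 4.3.3) with 4 group means, two-sided, adjusted over all genes. The spread comes from the hairpin pairs and was taken to hold for the single control arrays too. The fit was tested on simulated data with 200 changed genes. Each was changed by far more than any member was here, so the simulation does not show which smaller changes the fit could call. Promoters came from RefSeq on GRCh38.p14 and gene order from its gene table, and no coordinate of the array was used. The members, lists and tests were chosen with earlier results of these data known. Besides the members and BMI1, genes were named from each list by the smaller hairpin change, up to 3 per direction at 0.3 or more, and by likeness over arrays. Alternatives were the other or both controls, other normalizations, the mean of probe sets, a filter on dim genes, the hairpin number as a block, a variance trend, each hairpin left out and a 2-fold threshold. Figures were drawn with matplotlib 3.10.9.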

Additional observations from a re-analysis of the deposited data

Results flagged for a closer look

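For TIMP3 and MMP14 both FAL-1 hairpins lay above their control and both BMI1 hairpins below theirs, and this difference between the targets was not tested. Of all genes 37.2% lay above with both FAL-1 hairpins and 30.7% below with both BMI1 hairpins. The share that did both was not counted, so these members are not set apart from other genes. For TIMP3 the mean FAL-1 change exceeded the mean BMI1 change by 1.002 on the log2 scale, although BMI1 hairpin 2 was only 0.01 below its control. FAL-1 hairpin 2 set most of that difference, at 1.48 beside 0.28 with hairpin 1. On the dimmer probe set the FAL-1 hairpins stood at 0.07 and 0.46 and the BMI1 hairpins at -0.06 and -0.10. For MMP14 the mean FAL-1 change exceeded the mean BMI1 change by 0.32. The FAL-1 hairpins stood at 0.08 and 0.19 and the BMI1 hairpins at -0.28 and -0.09. No group had the 4 arrays needed for a check of outlying samples.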

How the results depend on the processing

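Limma's count stayed at 0 genes for both targets under every alternative run. At an unadjusted p under 0.05 there were 183 (filter on dim genes, 9209 genes tested) to 1195 genes for BMI1 knockdown, and 272 (the same filter) to 1927 (without hairpin 1) for FAL-1 knockdown. The replicate block, with the hairpin number as a term, gave 0 calls for both targets, and 782 and 1064 genes unadjusted in place of 477 and 563. The hairpin numbers are not said to pair the arrays, and same-numbered deviations correlated at 0.275 across genes. The number of members at 1.5-fold with both BMI1 hairpins was 0, but 1 against the FAL-1 control (MMP3), and 1 with either BMI1 hairpin left out (MMP3 or MMP1). For FAL-1 it was 2, and 0 at a 2-fold threshold, and 2 to 3 with a hairpin left out (TIMP3 added without hairpin 1). The causes were not tested. With a hairpin left out the count rests on the other hairpin alone. Of all genes 5.01% and 5.82% reached 1.5-fold with BMI1 hairpin 1 or 2 alone, beside 1.44% with both. For FAL-1 it was 2.51% and 11.2% with hairpin 1 or 2 alone, beside 1.21% with both. The share of all genes at 2-fold was not counted. Mean changes changed sign with the other control for MMP1 and TIMP2 (BMI1) and TIMP4 (FAL-1), and without hairpin 1 or 2 only for means within 0.16 of 0. Quantile normalization moved a member's mean by 0.0523 at most and cyclic loess by 0.0503, enough to turn the sign of FAL-1 means near 0 (TIMP2 and TIMP4, and TIMP4). Pooled controls turned MMP1 (BMI1) and TIMP4 (FAL-1). The mean of probe sets gave 0.57 for TIMP3 with FAL-1 knockdown in place of 0.88.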
